A study of Homo sapiens with 2 samples.

Results

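Probe sets for 9 kidney cancer genes other than VHL were compared between 2 human renal cell carcinoma lines: the tumour suppressors PBRM1, SETD2, BAP1, CDKN2A, CDKN2B, TSC1, TSC2 and FH, and MTOR, the kinase that TSC1 and TSC2 restrain. A probe set, a group of short probes summarised as 1 value, was taken where the platform annotation paired it with exactly 1 of these symbols. This gave 19 of the 54613 probe sets on the array, covering 7 of the 9 genes and of the 19775 genes with such a probe set. No probe set in the annotation used was paired with BAP1 or FH, so these 2 genes were not analysed here. The first line, 786-O, carries a mutated VHL allele. The second, 786-VHL, was derived from 786-O and contains a functional VHL allele. The labels record no infection or drug for either sample and do not say whether 786-VHL is a single clone. Total RNA was labelled with biotin, and each line was measured on 1 array.

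VHL is the gene most often inactivated in clear-cell kidney cancer, and it lies on the short arm of chromosome 3 together with PBRM1, SETD2 and BAP1. Loss of that arm removes 1 copy of all of them. PBRM1 encodes a bromodomain subunit of the PBAF chromatin remodeller, SETD2 trimethylates histone H3 at lysine 36, and BAP1 removes ubiquitin from histone H2A. CDKN2A and CDKN2B encode inhibitors of the cyclin D kinases, TSC1 and TSC2 form the complex that switches off RHEB upstream of MTOR, and FH is the fumarate hydratase of the tricarboxylic acid cycle. In tumours these genes are mostly inactivated by mutation, deletion or promoter methylation, and an RNA array measures transcript level and not protein or mutation.

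Values are intensities in arbitrary units. A probe set was called above the floor on an array where its intensity exceeded 22.3, the median of all values on both arrays. Each difference is the log2(intensity + 16) of 786-VHL less that of 786-O. Positive values are higher in 786-VHL, and the difference of a dim probe set is understated. Every fold given is likewise a ratio of intensity + 16. For a dim probe set it is smaller than the ratio of the printed intensities. A single array per line allowed no test, p-value or check against replicates, and differences were described by fixed sizes of 1.5-fold (0.58) and 2-fold. The only measure of error was the spread between probe sets of 1 gene, a pooled SD of 0.328 over 6436 genes, which says nothing of the spread between cultures or arrays. In bulk RNA, fewer cells of a kind and less RNA per cell cannot be told apart.

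Array medians were 21.97 and 22.58, and 24414 single-gene probe sets (59.4%) were above the floor on at least 1 array. Their median difference was 0.04. VHL itself read 28.9 in 786-O and 15.96 in 786-VHL, under the floor. Whether its probes cover the introduced copy is not given in the sources used here, so directions rest on the labels. PAX8, the kidney lineage factor, read 1521 and 1068. Of 17 epithelial and kidney lineage markers, a list that includes VIM and CDH2, 13 were above the floor. VIM read 13034 in 786-O and 12498 in 786-VHL, and CDH2 1810 and 1347. The proximal tubule genes in the list were divided. CUBN, LRP2, SLC34A1 and AQP1 were below the floor on both arrays, while ANPEP, at 256 and 535, and GGT1, at 69.0 and 76.4, were above it. Of 6 leukocyte markers CD74 and LAPTM5 alone were above it and PTPRC was not, and 3 of 6 endothelial and 3 of 8 fibroblast and pericyte markers were. The summed leukocyte intensity was 232 in 786-O and 404 in 786-VHL, and its 2 markers above the floor went opposite ways, LAPTM5 from 25.9 to 292 and CD74 from 145 to 49.3. The endothelial sum was 101 and 117. The fibroblast and pericyte sum was 232 and 243, with LUM at 5.64 and 37.1, RGS5 at 60.9 and 42.3 and COL1A1 at 94.8 and 79.9. Their part in the results was not tested.

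Among the 19 member probe sets, 10 were above the floor on both arrays, 1 on the 786-VHL array alone and 8 on neither. None of the 11 that passed was 1.5-fold apart, against a background of 14.2% of all probe sets above the floor, and none was 2-fold apart, against 4.11%. Their differences ran from -0.22 to 0.54, 7 higher and 4 lower in 786-VHL, where 54.5% of all probe sets above the floor were higher. The 1 that passed on the 786-VHL array alone is among the 7. Of the 11, 9 differed by less than the pooled SD between probe sets of a gene, as did 65.5% of all probe sets above the floor, and the other 2 belonged to SETD2. A count this small beside that background does not set these genes apart from the rest of the array.

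**Figure D1:**
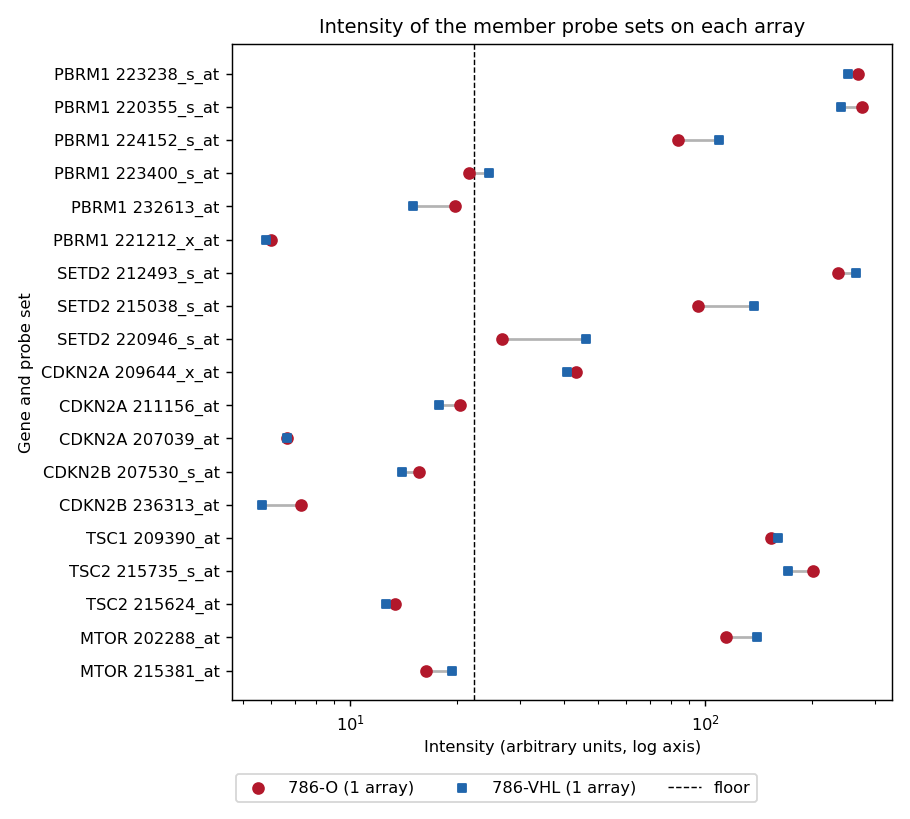
Intensity of each of the 19 member probe sets (log axis, arbitrary units) on the 786-O array (circles) and the 786-VHL array (squares), with the floor of 22.3 as a dashed line. All 3 SETD2 probe sets lie to the right of the floor and are higher in 786-VHL, while both CDKN2B probe sets and 2 of the 3 for CDKN2A lie to its left.

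SETD2, the only known human enzyme for bulk trimethylation of lysine 36, was the member with the largest differences, and its 3 probe sets were all higher in 786-VHL. The brightest, 212493_s_at, read 237 in 786-O and 266 in 786-VHL, a difference of 0.16. The second, 215038_s_at, read 95.6 and 137.5, a difference of 0.46. The dimmest, 220946_s_at, read 26.8 and 46.2, a difference of 0.54 or 1.45-fold with 16 added to each. The largest differences were thus on the dimmer probe sets, and the range among the 3 was 0.38, which 62.0% of genes with 3 or more probe sets above the floor matched or exceeded. Of the 2000 probe sets nearest in level to 220946_s_at, 10.3% differed by at least as much, and the figure for 212493_s_at was 69.2%. Among 1712 genes with exactly 3 probe sets above the floor, 27.5% had all 3 higher in 786-VHL, and 9.70% also had a mean difference at least that of SETD2, 0.39. With a pseudocount of 1 in place of 16 the dimmest SETD2 probe set reached 0.76 and was past 1.5-fold.

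PBRM1, whose bromodomains bind acetylated histones, had 6 probe sets, and those above the floor went both ways. The 2 brightest were slightly lower in 786-VHL. Probe set 223238_s_at read 269 in 786-O and 252 in 786-VHL, a difference of -0.09. Probe set 220355_s_at read 277 and 242, a difference of -0.19. Probe set 224152_s_at went the other way, at 84.0 and 109, a difference of 0.33. These 3 readings of 1 gene span more than any of them lies from 0, so they give PBRM1 no common direction. The fourth, 223400_s_at, read 21.7 and 24.5 and passed the floor in 786-VHL alone. With 786-O set to the floor it was 1.06-fold higher there. Its difference as read was 0.11, which 63.85% of the 2000 probe sets nearest in level matched or exceeded. The remaining 2, 232613_at at 19.8 and 15.01 and 221212_x_at at 5.99 and 5.79, were below the floor in both lines. The range over the 4 that passed was 0.51, and 46.9% of genes with 3 or more such probe sets had a range at least as wide.

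VHL targets the HIF alpha subunits, and HIF binds DNA at a short core, ACGTG or GCGTG. The 250 bases before the SETD2 start in the table used and before the upstream start of PBRM1 are printed because these genes gave the largest and the most divided readings. They are from RefSeq, GRCh38.p14, on the minus strand, at chr3:47164114-47164363 and chr3:52685914-52686163, with both cores on either strand in capitals (CACGT and CACGC are the reverse complements, and overlapping matches run together as CACGTG). The SETD2 start is internal: the region shown lies inside the gene as annotated, whose outer end is further upstream.
SETD2: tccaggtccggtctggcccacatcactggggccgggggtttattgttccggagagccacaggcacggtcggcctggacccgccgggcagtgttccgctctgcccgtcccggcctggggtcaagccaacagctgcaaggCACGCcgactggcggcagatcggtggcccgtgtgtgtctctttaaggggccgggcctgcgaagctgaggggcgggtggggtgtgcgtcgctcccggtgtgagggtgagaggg
PBRM1: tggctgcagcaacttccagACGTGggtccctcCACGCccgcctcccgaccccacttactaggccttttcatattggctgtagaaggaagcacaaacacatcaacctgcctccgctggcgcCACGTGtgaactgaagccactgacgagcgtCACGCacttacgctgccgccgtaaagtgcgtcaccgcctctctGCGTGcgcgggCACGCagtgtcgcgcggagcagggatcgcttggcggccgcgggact
SETD2 holds 1 marked stretch and this PBRM1 start holds 6, while the 250 bases before the other PBRM1 start hold none. Over the members, 7 of 11 start regions of 8 genes held a match, against 43.2% of 35116 regions of the same length in the table. The table had no entry matched to BAP1. GC content was 69.6% for SETD2 and 63.6% for the PBRM1 region shown, against a mean of 57.2%. A match describes letters and not a bound site.

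CDKN2A and CDKN2B lie side by side on chromosome 9 and encode p16 and p15, which bind CDK4 and CDK6, while a second start of CDKN2A makes ARF, which shields p53 from MDM2. 786-O is catalogued as carrying a CDKN2A deletion. Copy number was not measured here. Of the 5 probe sets of these 2 genes only 1, for CDKN2A, was above the floor, on both arrays. The readings were alike in both lines. The CDKN2A probe set 209644_x_at read 43.4 in 786-O and 40.9 in 786-VHL, a difference of -0.06, and it was the only one of these 5 above the floor. Its suffix _x_at marks probes that can bind other transcripts as well. The CDKN2A probe set 211156_at read 20.4 and 17.7. The third, 207039_at, read 6.65 on both arrays, an exact tie shared by 1087 of the 16677 single-gene probe sets below the floor in both lines (6.52%). CDKN2B read 15.6 and 13.98 on 207530_s_at and 7.25 and 5.65 on 236313_at. No fold is given for these, since values below the floor have no reliable order.

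TSC1 (hamartin) stabilises TSC2 (tuberin), whose GTPase-activating domain acts on RHEB. TSC1 read 154 in 786-O and 160 in 786-VHL on its only probe set, 209390_at, a difference of 0.06, and 85.8% of all probe sets above the floor differed by at least as much. TSC2 read 202 and 172 on 215735_s_at, a difference of -0.22, the lowest of any member probe set above the floor. Its other probe set, 215624_at, was below the floor at 13.4 and 12.6. The 2 subunits thus differed in opposite directions, each by less than the spread between probe sets.

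MTOR, the catalytic subunit of both mTOR complexes, is the one member that acts as an oncogene in kidney cancer, where activating mutations occur. It read 115 in 786-O and 140 in 786-VHL on 202288_at, a difference of 0.26. The other probe set, 215381_at, read 16.3 and 19.3, below the floor in both lines. Removing the intensity trend left the first at 0.25.

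**Figure D2:**
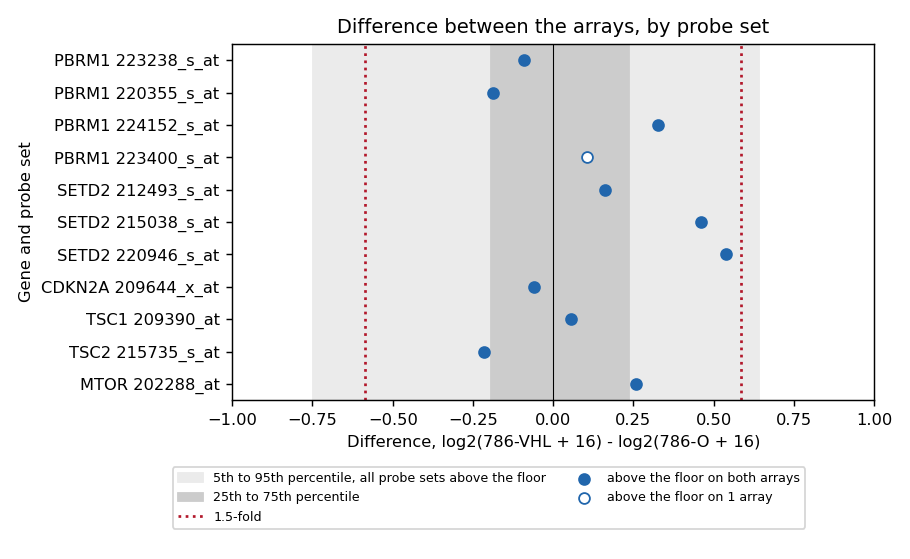
Log2 difference between 786-VHL and 786-O for the 11 member probe sets above the floor on both arrays (filled) or on 1 (open), with the central ranges of all probe sets above the floor in grey and 1.5-fold as dotted lines. Every member lies inside the dotted lines, between -0.22 for TSC2 and 0.54 for SETD2, and PBRM1 lies on both sides of 0.

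Pathway partners were described with 1 probe set per gene, the one with the highest mean level. Over 13291 genes above the floor the median difference was 0.05, with 56.8% higher in 786-VHL and 41.8% lower at any size. At least 1.5-fold apart were 12.8%, with 6.25% higher in 786-VHL and 6.55% lower. At 2-fold these shares were 3.72%, 1.54% and 2.18%. The lists leave out the members themselves.

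Of 25 subunits of the PBAF and related BAF remodellers all were above the floor, 13 higher and 11 lower, with a median of 0.01. SMARCC1, a core scaffold subunit, was the only one 1.5-fold apart, at 346 in 786-O and 555 in 786-VHL, a difference of 0.66. Its other 3 probe sets ranged from -0.62 to 0.81, so the gene had no common direction. The subunits that, with PBRM1, mark PBAF were named for that role after their values were seen. PHF10 differed by -0.48, and its other probe set, at -0.59, was past 1.5-fold lower. ARID2 differed by -0.48, with others from -0.12 to 0.10, and BRD7 by 0.19, with others from -0.56 to 0.43.

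Of 23 genes that write, erase or read H3K36 methylation 12 were higher and 11 lower, with a median of 0.03, and 3 (13.0%) were 1.5-fold apart. DNMT3B, a DNA methyltransferase whose PWWP domain reads this mark, read 131 in 786-O and 249 in 786-VHL, a difference of 0.84 on its only probe set. ZMYND11, a reader of the trimethylated mark on H3.3, read 1281 and 838, a difference of -0.60, with other probe sets from -0.19 to 0.14. KDM4B, a demethylase mainly of lysine 9, read 142 and 86.6, a difference of -0.62, with others from -0.55 to 0.29. SETD2 was therefore higher on every probe set while its wider pathway was divided evenly.

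Partners of BAP1 and enzymes of the H2A ubiquitin cycle had a median of 0.21 over 19 genes, 14 higher and 5 lower. Of all genes above the floor 56.8% were higher. Over the median of each gene's probe sets the list median was 0.099. PCGF5, a Polycomb RING-finger subunit on the side that adds the ubiquitin, was the only one 1.5-fold apart, at 469 and 291, a difference of -0.66, with other probe sets from -0.20 to 0.10. ASXL1 and ASXL2, the cofactors that activate BAP1, were named for that role after their values were seen and differed by 0.21 each. Their other probe sets went both ways, from -0.41 to 0.27 for ASXL1 and from -0.23 to 0.45 for ASXL2, so neither had a common direction.

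The list around CDKN2A and CDKN2B held the cyclin D, RB and p53 arm and other kinase inhibitors, CDKN1C, CDKN1B and CDKN2D among them. It had a median of 0.02 over 18 genes, 9 higher and 9 lower. CDKN1C, which encodes the p57 inhibitor, read 74.5 in 786-O and 145 in 786-VHL, a difference of 0.83, and its other 3 probe sets were also higher, from 0.53 to 0.58. CDKN1B, which encodes p27, read 603 and 382, a difference of -0.64 on its only probe set. The direct targets of p16 were named for that role after their values were seen: CDK4 differed by 0.13 on its only probe set above the floor and CDK6 by -0.05, with its other 6 from -0.72 to 0.17.

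The TSC and mTOR pathway held the largest single differences of any list. It was also the longest list, which leaves more room for an extreme value. Of 56 genes above the floor 33 were higher and 22 lower in 786-VHL, with a median of 0.14. At 1.5-fold 8 (14.3%) were apart, 6 higher and 2 lower, against 12.8% of all genes above the floor. At 2-fold 3 were higher and none lower, against 1.54% and 2.18% of all genes. All 3 of these act on the inputs to mTORC1. DDIT4, a stress-induced inhibitor that works through the TSC complex, read 73.3 in 786-O and 535 in 786-VHL, 6.17-fold higher. DDIT4 has no other probe set above the floor. SESN2, a leucine sensor that restrains mTORC1, read 46.0 and 167, 2.94-fold higher, though its other probe set differed by 0.20. RRAGD, a Rag GTPase that brings mTORC1 to the lysosome, read 34.0 and 87.1, 2.06-fold higher on its only probe set above the floor. With a pseudocount of 64 its difference was 0.62, short of 2-fold. On the other side, AKT1S1, which encodes the inhibitory mTORC1 subunit PRAS40, read 500 and 293, a difference of -0.74, with its other probe set at -0.58. SEH1L, of the GATOR2 complex, read 1636 and 994, a difference of -0.71, with its other probe set at -0.20. The core partners were named for their roles after their values were seen. TBC1D7, the third subunit of the TSC complex, differed by 0.57, RHEB by -0.04, RPTOR by -0.12, RICTOR by -0.08 and MLST8 by 0.12. AKT1S1 aside, the subunits of the TSC and mTOR complexes, TSC1, TSC2 and MTOR included, lay between -0.49 for MAPKAP1 and 0.57 for TBC1D7 on the probe sets that represent them, short of 1.5-fold. Other probe sets passed it, MAPKAP1 at -0.67 and RICTOR at 0.67.

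A mixed list around FH held enzymes of the tricarboxylic acid cycle, their assembly factors and linked enzymes of malate, citrate and fumarate metabolism. It had 23 of 28 genes higher in 786-VHL and 5 lower, with a median of 0.16, where 56.8% of all genes above the floor were higher. With the intensity trend removed the median was 0.078 and 51.3% of all genes were higher. Of the 28, 4 (14.3%) were 1.5-fold apart. Split after the values were seen, the 14 enzymes of the cycle itself had 11 higher, a median of 0.16 and 1 past 1.5-fold, which was lower. The 3 that were 1.5-fold higher, ASS1, IDH1 and ME1, were all among the other 14. ASS1, which makes argininosuccinate in a pathway that yields fumarate, read 523 in 786-O and 1522 in 786-VHL, 2.85-fold higher. ASS1 has no other probe set above the floor. IDH1, the cytosolic isocitrate dehydrogenase, read 582 and 1372, 2.32-fold higher, with its other probe set at 1.27. ME1, the cytosolic malic enzyme, differed by 0.65, with its other probe set at 0.31. DLST, of the oxoglutarate dehydrogenase complex, differed by -0.62 on its only probe set above the floor. MDH2, which acts on the malate that FH makes, differed by 0.43, with its other probe set at 0.23, and SDHA, which makes the fumarate that FH uses, by 0.17; both were named for their place beside FH after their values were seen.

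A further list held other genes mutated or lost in kidney cancer. It had 10 of 26 genes higher and 16 lower in 786-VHL, with a median of -0.05 (-0.13 with the intensity trend removed), and 6 (23.1%) were 1.5-fold apart, 1 higher and 5 lower. Among the 5 is FHIT, named for this limit, at 33.3 in 786-O and 13.4 in 786-VHL, under the floor. With 786-VHL set to the floor it was 1.29-fold lower, short of 1.5-fold. The share over all genes counts such genes in the same way. MITF, a transcription factor altered in inherited kidney cancer, read 166 and 311, a difference of 0.85, with its other probe set at 0.91. ATM, the DNA damage kinase, read 157 and 49.9, a difference of -1.39, with its other 2 probe sets at -1.32 and -0.75. FAT1, an atypical cadherin, read 586 and 287, a difference of -0.99 on its only probe set. KMT2A, a histone H3 lysine 4 methyltransferase, read 248 and 136, a difference of -0.80, with other probe sets from -0.46 to -0.03. ATM and KMT2A both lie on chromosome 11, as does SDHD of this list, at -0.21, named after its value was seen. CDKN1C of another list, also on chromosome 11, was higher, at 0.83. The part of the chromosome in these readings was not tested.

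**Figure D3:**
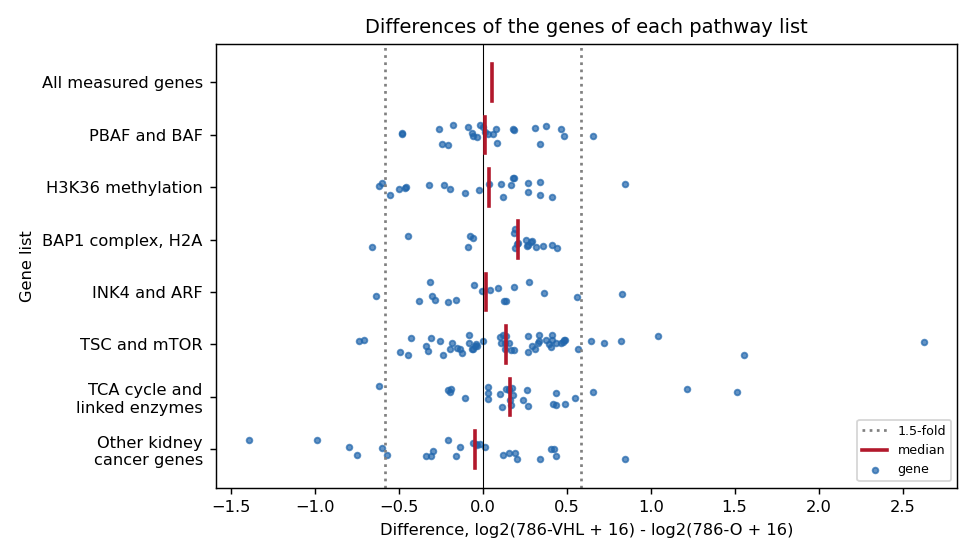
Log2 difference between 786-VHL and 786-O for each gene above the floor in 7 pathway lists (points) with the list median (red bar), the median of all 13291 genes at the top and 1.5-fold as dotted lines. List medians run from -0.05 to 0.21, and the points farthest out are DDIT4 at 2.63 in the TSC and mTOR list and ATM at -1.39 among other kidney cancer genes.

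Because 3 of the members share a chromosome arm and 2 are adjacent, the 10 protein-coding genes on each side of every member were read in the order of the GRCh38.p14 annotation. Of all genes above the floor 56.8% were higher in 786-VHL, the share beside which each neighbourhood is read. Around SETD2, at chr3:47016436-47164840, 13 of the 15 genes above the floor were higher in 786-VHL and 2 lower, with a median of 0.11. Raising the floor to the 75th percentile made that median 0.39, and it was 0.22 over the median of each gene's probe sets. At 1.5-fold 4 of the 15 (26.7%) were higher and none lower, against 6.25% of all genes higher. Its nearest neighbours were NBEAL2, at 53.5 and 71.0, a difference of 0.32, and KIF9, a kinesin gene, at 142 and 255, a difference of 0.78. The other 3 past 1.5-fold, named after their values were seen, were SMARCC1 at 0.66, the RNA helicase gene DHX30 at 0.62 and the microtubule-binding protein gene MAP4 at 0.61. KIF9 had all 4 of its probe sets higher, from 0.20 to 0.78, whereas those of SMARCC1 and MAP4 went both ways. Some of the 13 were close to 0, such as PTPN23 at 0.01 and PRSS50 at 0.08, named after their values were seen. The higher SETD2 readings thus stood among neighbours that were mostly higher too, some of them barely, and the part of the region in them was not tested. With the intensity trend removed 2 of the 15 were past 1.5-fold, and 1 over the median of probe sets.

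The region around PBRM1, at chr3:52545367-52685913, had 8 of 12 genes higher and none 1.5-fold apart, with a median of 0.10 that turned to -0.06 with the higher floor. Its nearest measured neighbours were UQCC5 at 0.20 and GLT8D1 at 0.09. BAP1 lies at chr3:52401008-52410008, and the 2 windows share 13 genes, counting the members. Around BAP1 10 of 15 genes were higher and 1, ALAS1, a haem synthesis enzyme gene named after its value was seen, was 1.5-fold apart, at 0.69; the nearest neighbours were DNAH1 at 0.12 and PHF7, whose representing probe set was below the floor.

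Around CDKN2A, at chr9:21967752-21995324, 10 of 17 genes with a probe set were below the floor in both lines, among them the interferon genes of the cluster. The nearest neighbours were CDKN2B and MTAP, a methionine salvage enzyme gene often lost together with CDKN2A in tumours. MTAP read 178 in 786-O and 202 in 786-VHL, a difference of 0.17, with its 3 other probe sets above the floor from -0.45 to 0.34. MTAP was thus above the floor in both lines where 4 of the 5 CDKN2A and CDKN2B probe sets were not. TUSC1, a candidate tumour suppressor gene further along, was the only one 1.5-fold apart, at 1110 and 565, a difference of -0.95, and was named after its value was seen. The window of CDKN2B, at chr9:22002903-22009313, is nearly the same, with 20 genes in common counting the members, and its nearest neighbours are CDKN2A and DMRTA1, at 0.02.

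Around TSC1, at chr9:132891349-132945378, 10 of 13 genes were higher, against 56.8% of all genes, with a median of 0.13 (0.30 without suffixed probe sets). The nearest neighbours were SPACA9 at 0.57 and GFI1B, above the floor in 786-VHL alone. GTF3C4, a transcription factor IIIC subunit gene named after its value was seen, was the only one 1.5-fold apart there, at 0.60, with others from 0.38 to 0.48. TSC2, at chr16:2047985-2089491, had 9 of 16 higher and a median of 0.03 (-0.08 with the higher floor), with NTHL1 at 0.18 and PKD1, the polycystic kidney disease gene, at 0.14 on either side. Around MTOR, at chr1:11106535-11262551, 12 of 14 were higher, against 56.8% of all genes, with a median of 0.22 and none 1.5-fold apart. EXOSC10 next to MTOR differed by 0.49, with ANGPTL7 below the floor on the other side. Around FH, at chr1:241497603-241519755, 5 of 9 were higher with a median of 0.06 (0.23 with the higher floor and -0.03 without suffixed probe sets), and its nearest genes with a probe set, RGS7 and KMO, were below the floor. OPN3, an opsin gene named after its value was seen, was the only one 1.5-fold apart there, at 0.89, with its other probe set at 0.34. MTOR at 0.26 was near the median of its neighbours, whereas TSC2 at -0.22 lay below that of its own.

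**Figure D4:**
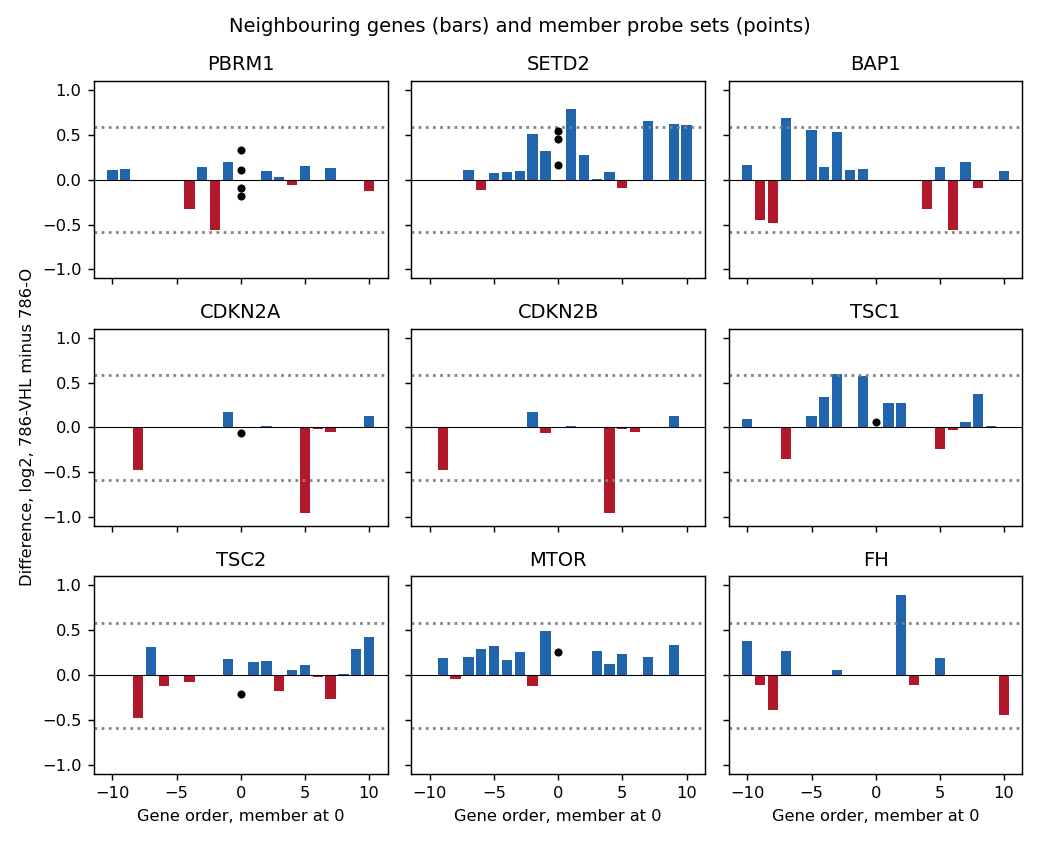
Log2 difference between 786-VHL and 786-O of the protein-coding genes above the floor within 10 places of each member in gene order (bars), with the member's own probe sets above the floor at 0 (points) and 1.5-fold as dotted lines. Of the 15 genes around SETD2, 13 are higher in 786-VHL and 4 pass the upper line, and around MTOR 12 of 14 are higher with none past it. Of all genes above the floor 56.8% are higher.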

How the data were processed

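Total RNA of 786-O and 786-VHL was measured on 1 array each. The authors deposited 1 intensity per probe set and array, on a linear scale as the range shows. R 2.10 is the only tool in the submitters' processing notes. Steps before deposit, such as background correction or normalization, are not given in the sources used and could compress or shift differences. The annotation paired 41091 probe sets with 1 gene, 1801 with several and left 11721 unnamed here; symbols were updated by Entrez number. Gene locations and start regions are from RefSeq GRCh38.p14. Intensities were taken as log2(value + 16), with the floor at the pooled median. The members and lists were chosen with earlier results of these data known. Named genes are all members, up to 3 list genes in each direction past 1.5-fold with the largest differences, and the nearest neighbours; others are said to be chosen later. No gene was named as like a member in pattern, since over 2 samples every gene correlates perfectly. Alternatives were quantile normalization, removal of the intensity trend by lowess, pseudocounts of 1 and 64, a floor at the 75th percentile or none, no suffixed probe sets, a 2-fold threshold and the median over probe sets. The procedure was tested on simulated data. The planted changes were larger than any member difference and were checked on bright probe sets only. That test therefore says nothing of small differences or dim probe sets. Tools were Python 3.11.15 with pandas 2.3.3 and numpy 2.4.6 for the tables, statsmodels 0.14.6 for lowess, scipy 1.17.1 for ranks, and matplotlib 3.10.9.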

Additional observations from a re-analysis of the deposited data

How the results depend on the processing

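All 65 alternative values of the 11 member differences moved by less than the pooled SD between probe sets. Part of this was fixed in advance. The floor and suffix settings only choose probe sets and leave each difference as it was. Of the 11, 9 lay within that SD of 0, so they could fall to 0 and still count as unmoved. Medians were held to that SD over the square root of their number of genes, a measure chosen after their values were seen, and 11 of 136 moved by more: the members to -0.013 with no floor, the neighbours of PBRM1 to -0.056, SETD2 to 0.389, TSC2 to -0.078 and FH to 0.230 with the higher floor, the FH list to 0.078 and other kidney cancer genes to -0.125 with the trend removed, the latter to -0.139 and the neighbours of TSC1 to 0.303 without suffixed probe sets, and the BAP1 list to 0.099 and the neighbours of SETD2 to 0.217 over the median of probe sets. Of 17 medians 8 changed sign under at least 1 alternative, so small medians have no firm direction. No paired analysis was possible because there was only 1 array of either line, which also left no replicate to drop. Of 176 alternative counts 131 stayed within 1.5 times. With no floor all 19 member probe sets counted and 8.43% of all probe sets were 1.5-fold apart. Without suffixed probe sets 2 members were left, both higher, with 1 gene past 1.5-fold for H3K36 methylation, 5 for TSC and mTOR, 1 for the FH list and 0 around BAP1 and FH. A pseudocount of 1 put 1 member probe set past 1.5-fold, 2 PBAF and BAF genes and 2 neighbours each of BAP1, TSC1 and FH. A pseudocount of 64 left 8.14% of all probe sets, 1 gene each for H3K36 methylation and the INK4 and ARF arm, 2 neighbours of SETD2 and 0 of TSC1. At 2-fold 4.11% of all probe sets were apart, 3 genes for TSC and mTOR, 2 for the FH list (ASS1 and IDH1), 1 other kidney cancer gene, and 0 in the other lists and neighbourhoods. Over the median of probe sets the counts were 0 for PBAF and BAF and the BAP1 list, 1 for H3K36 methylation, 1 for INK4 and ARF, 1 around SETD2 and 0 around TSC1. Quantile normalization gave 1 neighbour of PBRM1 and 2 of BAP1; with the trend removed these were 1 and 2, with 2 around SETD2 and 0 around TSC1. Of 152 alternative values of named list genes 10 moved, RRAGD to 0.62 with a pseudocount of 64 among them, and 2 reversed: KDM4B was at 0.29 without suffixed probe sets and 0.095 over the median, since its probe sets disagree. Other causes were not tested. Precision is limited by the number of arrays.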
